A study of Mus musculus with 6 samples.

Results

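The 10 genes described here mark the endothelium, the cell layer that lines blood vessels, and were followed in limb bone perichondrium, the connective tissue sheath around growing cartilage. They are Pecam1, Cdh5, Kdr, Flt1, Tek, Tie1, Plvap, Emcn, Egfl7 and Cldn5, taken by symbol through the GENCODE M21 annotation, and all 10 were found among the 55536 genes of the deposited count table. Perichondrium was taken at postnatal day 4 as 3 samples of Fbn1Scx-/- mice and 3 of wild-type mice, each with 1 RNA sequencing library. In the knockout (mut) group Fbn1, the gene of the microfibril protein fibrillin-1 that is mutated in Marfan syndrome, was deleted with a Cre recombinase driven by Scx, a transcription factor gene of tendon and ligament cells. The libraries are named after their titles: mut-596, mut-597 with mut-795 hold knockout RNA, and WT-596, WT-597 with WT-795 wild-type RNA. The title of mut-596 ends in ScxCRE and those of mut-597 and mut-795 end in Koscx, a difference that the titles do not explain. Separate animals are not stated for the libraries, so a p-value here sets the group difference against the spread between libraries, which may be technical. The labels also do not name the deleted exons or say that vessels were dissected away.

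Endothelial cells hold to each other through VE-cadherin and claudin junctions, and read growth and stability signals from the surrounding tissue through 2 families of receptor tyrosine kinases. VEGF ligands act through VEGFR2, encoded by Kdr, while VEGFR1, encoded by Flt1, binds VEGF and largely acts as a decoy. Angiopoietins act through TIE2, encoded by Tek, with TIE1 as its related partner receptor. In developing long bones, vessels of the perichondrium come before the vascular invasion of the cartilage template and the formation of bone.

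No endothelial gene passed the test between knockout and wild type, and the summed level of the 10 genes overlapped between the groups. The sum was 264 CPM (counts scaled to the effective library total) in mut-596, 247 in mut-597 and 218 in mut-795, against 253 CPM in WT-596, 256 in WT-597 and 246 in WT-795. Within that sum the genes went different ways. Plvap, Tie1, Egfl7 and Cldn5 lay lower in knockout, between 1.39-fold and 2.22-fold by mean CPM, while Cdh5, Kdr, Flt1 and Tek lay higher, at log2 fold changes between 0.20 and 0.38, and Pecam1 and Emcn lay within 0.08 of 0 on the log2 scale. These 3 groups were formed after the values were seen. By edgeR's quasi-likelihood test with Benjamini-Hochberg adjustment over all 15712 genes tested, 0 of the 10 genes had an adjusted p under 0.05, where 0.00636% of all genes tested did (1 gene, Fbn1). DESeq2, which called 0.0255% of all genes tested, and limma-voom also called 0 of the 10. At an unadjusted edgeR p under 0.05, 2 genes were lower (Plvap and Egfl7) and 0 were higher, against 7.12% and 3.37% of all genes tested. The median log2 fold change of the 10 genes was -0.05 and that of all genes tested was 0.01, and 6 of the 10 lay below 0, where 49.1% of all genes tested did. In whole tissue, fewer endothelial cells and less RNA per endothelial cell cannot be told apart.

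**Figure D1:**
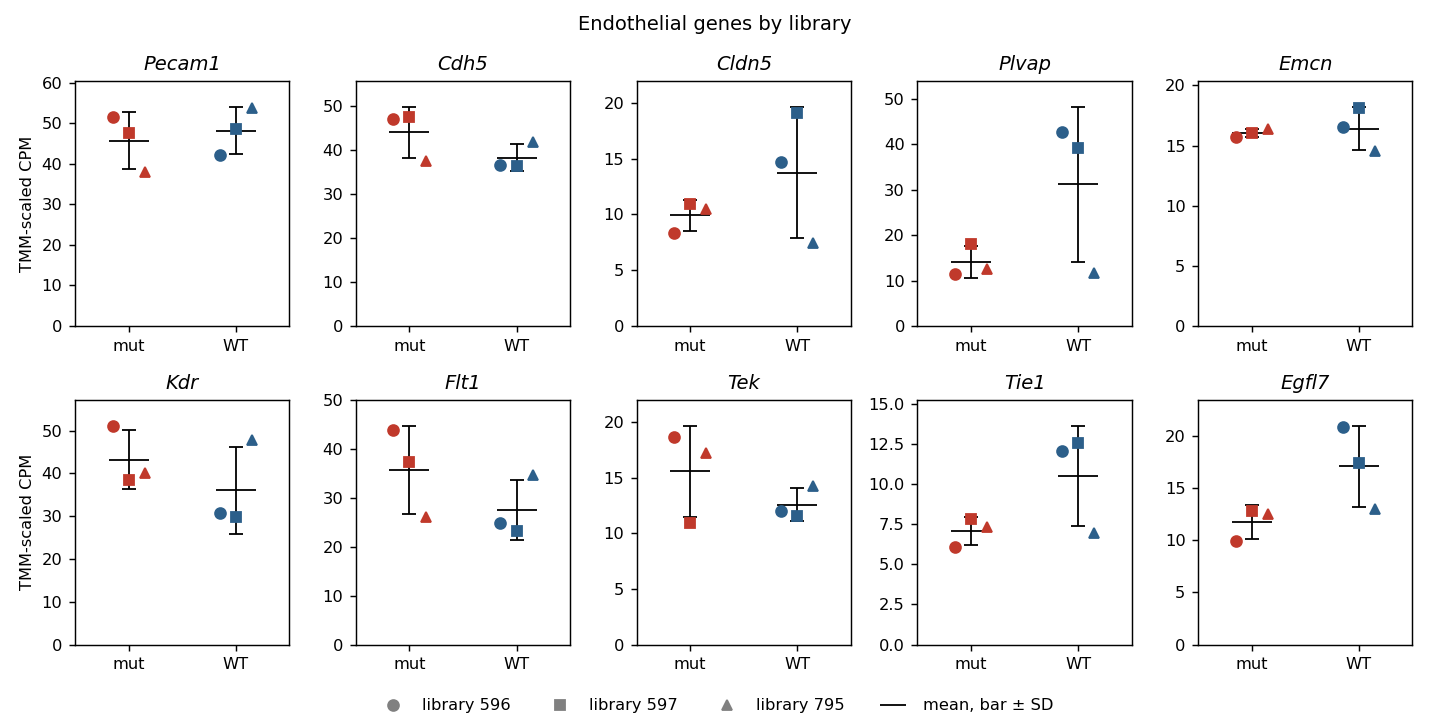
Level of each of the 10 endothelial genes (CPM with TMM scaling, y axes from 0) in the knockout and wild-type libraries, with a marker shape for each title number, a long bar for the group mean and error bars for the SD (n = 3 each). For Plvap, Tie1, Egfl7 and Cldn5 the triangle of WT-795 lies near or inside the knockout values, while WT-596 and WT-597 lie above them.

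The libraries differed in several measured ways that touch these results. Total counts lay between 7209217 and 9720268 in knockout and between 8019248 and 10316017 in wild type. Fbn1 itself fell, to 7.96 ± 1.81 CPM in knockout against 89.1 ± 28.1 CPM in wild type (SD, n = 3 each, edgeR adjusted p = 1.03e-04). Xist, an RNA made by the inactive X of females, reached 6221 counts in mut-596 and 4024 in mut-597 but at most 4 in any other library, so the groups differed in sex. WT-795 stood apart from the other wild types: the deviations of its genes from their 6-library means correlated with transcript GC content at a Spearman rho of -0.34, a description across genes, beside -0.45 in mut-596, -0.17 in mut-597 and -0.43 in mut-795, and beside 0.51 in WT-596 and 0.55 in WT-597. Over all genes tested, the median log2 fold change of knockout over wild type was 0.33 for 3882 genes with a transcript GC content below 45% and -0.38 for 3545 genes at or above 55%.

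The 10 endothelial transcripts span much of that range of base composition. Transcript GC content was 60.6% for Plvap, 60.5% for Cldn5, 58.5% for Egfl7 and 58.2% for Tie1, and it was 52.2% for Cdh5, 50.5% for Flt1, 49.8% for Pecam1, 49.4% for Kdr, 47.1% for Tek and 41.5% for Emcn. The 4 genes that lay lower are thus the 4 richest in GC. To show this difference, the middle 120 coding bases of 6 transcripts follow, 5′ to 3′, from the GENCODE M21 transcript with the longest coding sequence, with G and C in capitals.
Plvap: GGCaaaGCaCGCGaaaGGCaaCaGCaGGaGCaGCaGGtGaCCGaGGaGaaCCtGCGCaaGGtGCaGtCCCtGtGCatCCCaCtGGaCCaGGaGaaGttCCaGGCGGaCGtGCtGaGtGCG
Cldn5: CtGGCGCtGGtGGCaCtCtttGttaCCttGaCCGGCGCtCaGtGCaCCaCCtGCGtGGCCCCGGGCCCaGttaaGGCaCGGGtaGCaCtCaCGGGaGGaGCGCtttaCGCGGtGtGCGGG
Tie1: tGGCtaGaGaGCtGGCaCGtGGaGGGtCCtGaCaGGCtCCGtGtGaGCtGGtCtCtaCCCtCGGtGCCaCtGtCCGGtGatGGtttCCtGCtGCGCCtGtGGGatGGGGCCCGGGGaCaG
Tek: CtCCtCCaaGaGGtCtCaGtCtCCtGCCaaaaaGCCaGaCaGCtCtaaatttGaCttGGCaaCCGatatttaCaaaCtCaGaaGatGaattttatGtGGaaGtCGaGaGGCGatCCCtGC
Kdr: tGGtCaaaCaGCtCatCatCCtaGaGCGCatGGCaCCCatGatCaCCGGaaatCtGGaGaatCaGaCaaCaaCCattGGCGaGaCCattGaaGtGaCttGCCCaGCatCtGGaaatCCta
Emcn: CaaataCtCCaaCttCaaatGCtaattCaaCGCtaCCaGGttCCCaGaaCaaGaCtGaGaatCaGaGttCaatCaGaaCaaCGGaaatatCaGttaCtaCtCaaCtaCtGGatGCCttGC
In these windows G and C made up 62.5% of bases in Plvap, 66.7% in Cldn5 and 65.8% in Tie1, against 45.8% in Tek, 49.2% in Kdr and 40.8% in Emcn. Tie1 and Tek, which encode receptors of the same family, thus lie far apart in composition. Across the 10 genes the log2 fold change was lower at higher GC content (Spearman rho = -0.71, Pearson r = -0.76) and higher at greater transcript length (Spearman rho = 0.73). These are descriptions over 10 genes measured in the same 6 libraries, given with no p, and over 15701 tested genes with a GC value the rho was -0.62.

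**Figure D2:**
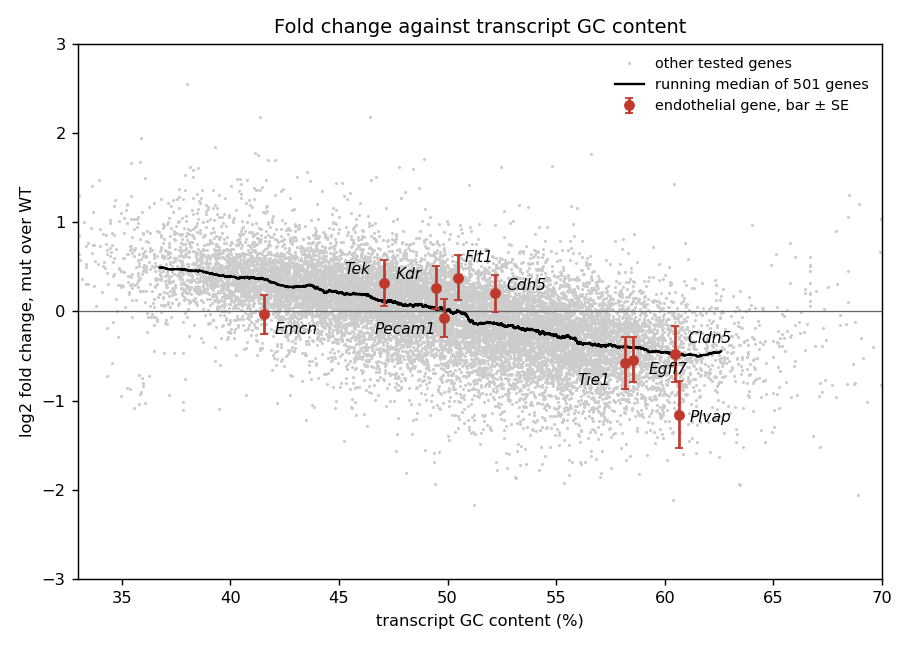
Log2 fold change of knockout over wild type (y axis) against transcript GC content in percent (x axis), with 1 grey point for each tested gene in the range drawn, a running median over genes as a black line, and the 10 endothelial genes in red with their SE. Plvap at 60.6% GC and Emcn at 41.5% GC lie below the line, and Cldn5, Egfl7 and Tie1 lie within 1 SE of it.

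Junction and adhesion genes differed in direction. Pecam1 (chromosome 11, 106654217 to 106750628 in GRCm38, minus strand) encodes CD31, an adhesion molecule of endothelial cell borders that platelets and leukocytes also carry. It was at 51.6 CPM in mut-596, 47.5 in mut-597 and 38.0 in mut-795, against 42.1 CPM in WT-596, 48.7 in WT-597 and 53.6 in WT-795. The groups overlapped throughout, with mut-795 lowest and WT-795 highest, and the log2 fold change was -0.07 (SE 0.22, edgeR adjusted p = 0.887). Cdh5 (chromosome 8, 104101625 to 104144511, plus strand) encodes VE-cadherin, the adhesion protein of endothelial adherens junctions. Its levels were 47.0 CPM in mut-596, 47.4 in mut-597 and 37.3 in mut-795, against 36.5 CPM in WT-596, 36.3 in WT-597 and 41.7 in WT-795. The lowest knockout library lay among the wild types, and the log2 fold change was 0.20 (SE 0.21, edgeR adjusted p = 0.671). Cldn5 (chromosome 16, 18776847 to 18778262, plus strand) encodes claudin-5, which seals endothelial tight junctions. Its values were 8.32 CPM in mut-596, 10.9 in mut-597 and 10.5 in mut-795, against 14.7 CPM in WT-596, 19.1 in WT-597 and 7.48 in WT-795. WT-795 was the lowest of all 6 libraries, so the groups overlapped, and the log2 fold change was -0.48 (SE 0.31, edgeR adjusted p = 0.521).

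Plvap and Emcn mark the vessel surface. Plvap (chromosome 8, 71497765 to 71511752, minus strand) encodes the protein of the diaphragms that span fenestrae and caveolae of permeable capillaries. It had 87 counts in mut-596, 121 in mut-597 and 122 in mut-795, against 449 counts in WT-596, 415 in WT-597 and 84 in WT-795. On the CPM scale this was 11.5, 18.1 and 12.5 in knockout, against 42.6, 39.2 and 11.6 in wild type. WT-596 and WT-597 were well above every knockout library, while WT-795 lay inside the knockout range. The means were 14.1 ± 3.58 CPM in knockout libraries and 31.1 ± 17.0 CPM in wild-type libraries (SD, n = 3 each), a log2 fold change of -1.16 (SE 0.38, edgeR adjusted p = 0.459). The authors' deposited table lists Plvap at a log2 fold change of -1.17, and it is the only 1 of the 10 genes among the 1643 genes of that table, whose number equals 10.5% of the genes tested here, so 1 of 10 is near the background. Without WT-795 the log2 fold change of Plvap was -1.57 (edgeR adjusted p = 0.00453), in a fit that called 9.62% of all genes tested. Over 31958 genes with no filter on low counts the adjusted p of Plvap was 0.00295, in a fit that called 0.845% of them. With a correction for the GC trend of each library it was at -0.67 (SE 0.30, edgeR adjusted p = 0.780), and at -0.97 with that correction and without WT-795 (edgeR adjusted p = 0.0476, in a fit that called 0.866% of all genes tested), an alternative chosen after the data were seen.

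Emcn (chromosome 3, 137341067 to 137432185, plus strand) encodes endomucin, a sialoglycoprotein of venous and capillary endothelium whose level is used to tell vessel types apart in bone. The gene varied least of the 10, at 15.7 CPM in mut-596, 16.05 in mut-597 and 16.4 in mut-795, against 16.5 CPM in WT-596, 18.1 in WT-597 and 14.55 in WT-795. All 3 knockout libraries lay between the lowest and the highest wild type. Its log2 fold change was -0.03 (SE 0.22, edgeR adjusted p = 0.953), and -0.41 (SE 0.24) with the GC correction, where the adjusted p was 0.780. Egfl7 (chromosome 2, 26580014 to 26593120, plus strand) encodes a matrix protein secreted by endothelial cells and hosts the endothelial microRNA gene Mir126a. It was the only 1 of the 10 genes whose groups did not overlap, where 6.22% of all genes tested did not overlap in that direction, 5.66% in the other and 11.9% in either. Levels were 9.90 CPM in mut-596, 12.7 in mut-597 and 12.5 in mut-795, against 20.8 CPM in WT-596, 17.4 in WT-597 and 13.0 in WT-795. The gap between the highest knockout library and WT-795 was small, and p was 0.1 by exact permutation (two-sided, on log2 CPM), which 3 libraries against 3 cannot go below. The log2 fold change was -0.54 (SE 0.25, edgeR adjusted p = 0.473), and it was -0.13 with the GC correction, where the groups overlapped. Exons of Egfl7 share 264 bases (7.4% of its exon bases) with the gene model Gm20532 on the same strand and 64 bases with Agpat2 on the other, so a part of its count is uncertain. Mir126a had 0 counts in all libraries; these libraries are not made to capture mature microRNAs.

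VEGF receptors did not differ beyond the spread between libraries. Kdr (chromosome 5, 75932827 to 75978458, minus strand) was at 51.1 CPM in mut-596, 38.4 in mut-597 and 40.1 in mut-795, against 30.7 CPM in WT-596, 29.7 in WT-597 and 47.7 in WT-795. Only mut-596 exceeded WT-795, and all 3 knockout libraries exceeded the other wild types. The log2 fold change of Kdr was 0.27 (SE 0.24, edgeR adjusted p = 0.628). Flt1 (chromosome 5, 147561604 to 147726011, minus strand) was at 43.8 CPM in mut-596, 37.3 in mut-597 and 26.0 in mut-795, against 24.8 CPM in WT-596, 23.2 in WT-597 and 34.6 in WT-795. Here mut-795 lay inside the wild-type range, and the log2 fold change was 0.38 (SE 0.25, edgeR adjusted p = 0.530). With a covariate for the libraries that contained Xist, which leaves mut-795 as the only knockout library set against wild type, Flt1 was at -0.08 and Cdh5 at -0.03.

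The TIE receptor genes lay on opposite sides of 0. Tek (chromosome 4, 94739289 to 94874976, plus strand) was at 18.6 CPM in mut-596, 10.9 in mut-597 and 17.2 in mut-795, against 12.0 CPM in WT-596, 11.5 in WT-597 and 14.3 in WT-795. The lowest library of all 6 was mut-597, and the log2 fold change was 0.32 (SE 0.26, edgeR adjusted p = 0.593). Tie1 (chromosome 4, 118471191 to 118490061, minus strand) had the lowest counts of the 10 genes, between 46 and 71 in knockout and between 50 and 133 in wild type. It stood at 6.07 CPM in mut-596, 7.80 in mut-597 and 7.30 in mut-795, against 12.1 CPM in WT-596, 12.5 in WT-597 and 6.93 in WT-795. As with Plvap, WT-795 lay inside the knockout range. The log2 fold change of Tie1 was -0.58 (SE 0.29, edgeR adjusted p = 0.477), and -0.16 (SE 0.23) with the GC correction.

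**Figure D3:**
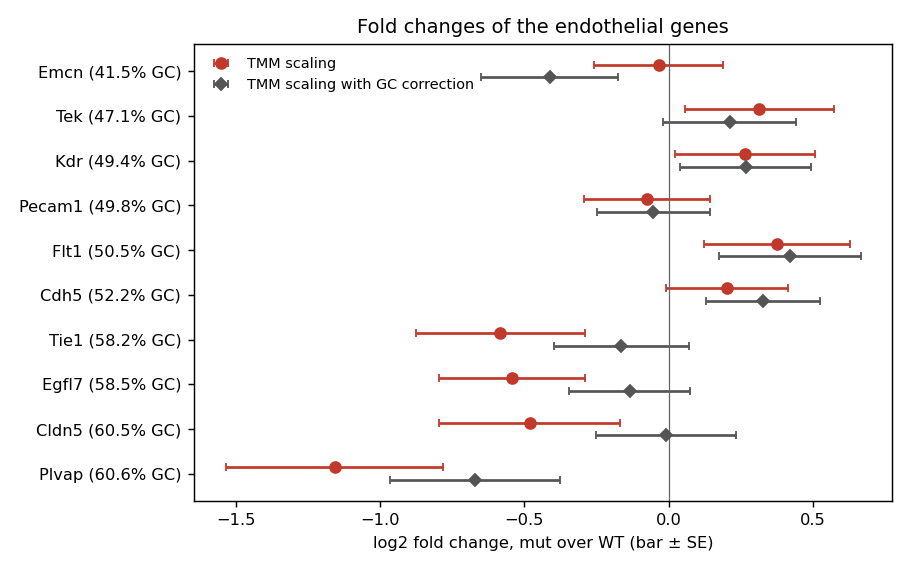
Log2 fold change of knockout over wild type (x axis, bars for the SE) for the 10 endothelial genes, ordered from low to high transcript GC content down the page, with TMM scaling (circles) and with a further correction for the GC trend of each library (diamonds). With the correction Tie1, Egfl7 and Cldn5 move to between -0.16 and -0.01, Emcn moves to -0.41, and Plvap stays lowest at -0.67.

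With the GC correction 0 of the 10 genes passed the edgeR test, and the adjusted p-values lay between 0.780 and 0.995. The correction moved Plvap, Cldn5, Tie1 and Egfl7 up by 0.49, 0.47, 0.42 and 0.41 on the log2 scale, moved Emcn by -0.38 and Tek by -0.10, and moved the others by at most 0.12. Whether base composition during library making sets these differences was not tested. Without WT-795, Plvap passed as lower (1 of the 10, against 6.12% of all genes tested called lower and 3.5% called higher), and Cldn5, Tie1 and Egfl7 had edgeR adjusted p-values of 0.0559, 0.0573 and 0.0658 at log2 fold changes of -0.79, -0.83 and -0.73. Leaving out other libraries brought some values nearer to 0, with Cldn5 at -0.20 without WT-597, and Kdr at 0.13, Flt1 at 0.20 and Tek at 0.17 without mut-596 (edgeR adjusted p between 0.876 and 0.926). Kdr was also at 0.16 without WT-596 and 0.13 without WT-597, and Tek at 0.51 without mut-597. Without WT-795, Kdr was at 0.49, and 7 of the 10 genes had groups that did not overlap (5 lower and 2 higher in knockout), where 47.8% of all genes tested did not overlap (25% lower and 22.8% higher).

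Ratios between genes of the same library do not depend on the scaling, but they are not corrected for the GC trend of a library. GC content differs between Plvap (60.6%) and Cdh5 (52.2%), and between Tie1 (58.2%) and Tek (47.1%). The ratio of Plvap to Cdh5 counts was 0.244 in mut-596, 0.383 in mut-597 and 0.336 in mut-795, against 1.17 in WT-596, 1.08 in WT-597 and 0.279 in WT-795. Plvap thus outnumbered Cdh5 in WT-596 and WT-597 alone, and WT-795 lay within the knockout range. The ratio of Tie1 to Tek was also highest in WT-597 and WT-596, with 0.326 in mut-596, 0.712 in mut-597 and 0.425 in mut-795, against 1.01 in WT-596, 1.09 in WT-597 and 0.485 in WT-795. Between the VEGF receptor genes, which are close in GC content, the ratio of Flt1 to Kdr averaged 0.826 ± 0.164 in knockout and 0.772 ± 0.0414 in wild type (SD, n = 3 each), and the groups overlapped. Pecam1 to Cdh5 averaged 1.04 ± 0.0515 in knockout and 1.26 ± 0.0960 in wild type (SD, n = 3 each), and all 3 knockout libraries, between 1.003 and 1.10, lay below the wild types, between 1.15 and 1.34. Egfl7, Cldn5 and Emcn to Cdh5 overlapped between the groups, with WT-795 at 0.312, 0.179 and 0.349 and mut-795 at 0.336, 0.281 and 0.438. Pecam1 to Cdh5 was the only ratio formed whose groups did not overlap, and no share over other gene pairs was computed. All of these ratios were chosen after the values were seen and carry no test.

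**Figure D4:**
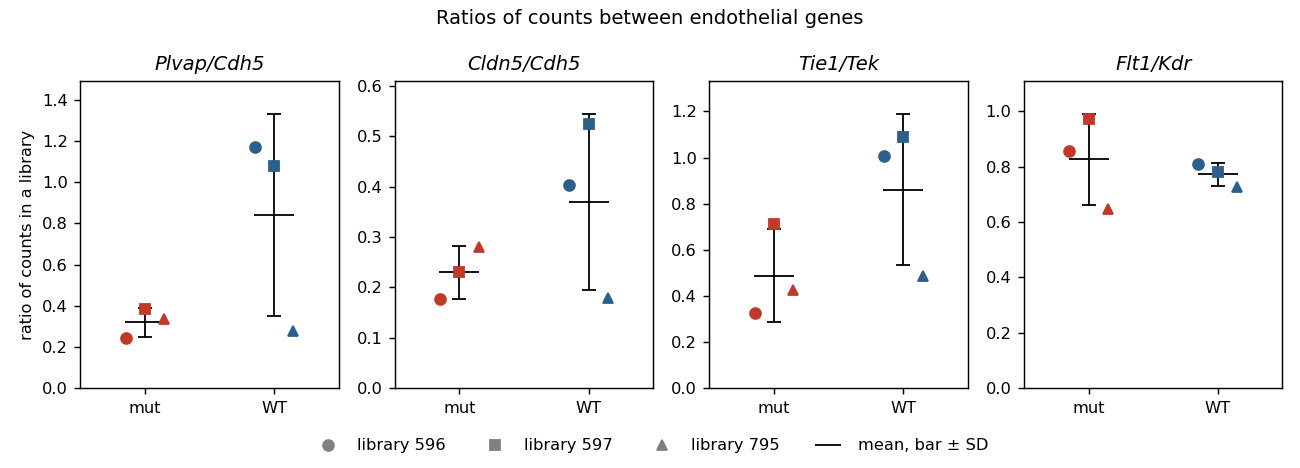
Ratio of counts between pairs of endothelial genes within a library (y axes from 0), for the knockout and wild-type libraries, with a marker shape for each title number, a long bar for the group mean and error bars for the SD (n = 3 each). Plvap to Cdh5 is 1.17 and 1.08 in WT-596 and WT-597 and at most 0.383 elsewhere, while Flt1 to Kdr overlaps between the groups.

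Levels of different genes were compared per length, as CPM per kilobase of the longest coding transcript. In knockout the order was Pecam1 (15.4 CPM per kilobase), Cdh5 (11.0), Egfl7 (8.44), Kdr (7.29), Plvap (7.08), Cldn5 (7.01), Emcn (6.20), Flt1 (5.18), Tek (3.35) and Tie1 (1.73). In that order Pecam1 and Cdh5, Cdh5 and Egfl7, and Tek and Tie1 were neighbours whose 3 libraries did not overlap, and all other neighbours overlapped. The wild-type order was Pecam1 (16.2 CPM per kilobase), Plvap (15.7), Egfl7 (12.3), Cldn5 (9.71), Cdh5 (9.55), Emcn (6.34), Kdr (6.08), Flt1 (4.00), Tek (2.70) and Tie1 (2.57). There only Cdh5 and Emcn, and Flt1 and Tek, were neighbours without overlap. Plvap took the second place in wild type with 15.7 ± 8.55 CPM per kilobase (SD, n = 3), with WT-795 at 5.86. Over the union of all annotated exons the first place differed: Cdh5 led in knockout at 10.4 CPM per kilobase, with Pecam1 next at 7.34. In wild type by that length Plvap led at 15.7 CPM per kilobase, before Cldn5 at 9.71, Cdh5 at 9.08 and Pecam1 at 7.73.

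Other genes used as endothelial markers were measured beside the 10. Of 30 such genes, all 30 were tested, 0 passed in either direction, and 19 lay below 0, with a median log2 fold change of -0.20 (0.01 over all genes tested). At an unadjusted edgeR p under 0.05, 6 were lower and 0 higher, against 7.12% and 3.37% of all genes tested. The smallest p belonged to Rasip1, which encodes a small-GTPase regulator needed for vessel lumens, with means of 3.23 ± 1.06 CPM in knockout libraries and 9.14 ± 3.36 CPM in wild-type libraries (SD, n = 3 each). Rasip1 was lower in every knockout library than in every wild type, as were 6.22% of all genes tested. The log2 fold change of Rasip1 was -1.52 (SE 0.36, edgeR adjusted p = 0.459), and its transcript has a GC content of 63.6%. Ramp2, a partner of the adrenomedullin receptor, was at -1.11, Nos3, the endothelial nitric oxide synthase, at -0.90, and the junction gene Esam at -0.66. All 3 had an edgeR adjusted p of 0.459 and a transcript GC content of 53.7% or more. With the GC correction Rasip1 was at -1.09, Ramp2 at -0.68, Nos3 at -0.50 and Esam at -0.43, and the median of the 30 was -0.14. Without the correction 11 of the 30 lay above 0. Without WT-795, 4 of the 30 passed, all lower in knockout, where 6.12% of all genes tested were called lower.

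Of the other genes in the VEGF and TIE pathways, 10 of 12 were tested, 5 lay above and 5 below 0, and 0 passed (median log2 fold change 0.07, mean -0.14). Pgf, the gene of placental growth factor, a ligand of VEGFR1, had 7 counts in mut-596, 6 in mut-597 and 9 in mut-795, against 39 counts in WT-596, 25 in WT-597 and 21 in WT-795. Pgf was lower in every knockout library than in every wild type, WT-795 included, as were 6.22% of all genes tested. Its mean was 0.917 ± 0.0146 CPM in knockout libraries and 2.99 ± 0.676 CPM in wild-type libraries (SD, n = 3 each), a log2 fold change of -1.69 (SE 0.44, edgeR adjusted p = 0.459) and of -1.36 with the GC correction, on low counts. Angpt1, the gene of the activating TIE2 ligand angiopoietin-1, was at 28.3 CPM in mut-596, 26.7 in mut-597 and 23.9 in mut-795, against 14.2 CPM in WT-596, 13.4 in WT-597 and 23.3 in WT-795. The groups just failed to overlap, where 5.66% of all genes tested did not overlap in that direction. The log2 fold change of Angpt1 was 0.64 (SE 0.25, edgeR adjusted p = 0.459), and 0.26 with the GC correction. Without WT-795 both passed the edgeR test, Pgf at -1.74 (adjusted p = 0.0369) and Angpt1 at 0.90 (adjusted p = 0.0286). That fit called 9.62% of all genes tested, 6.12% as lower and 3.5% as higher. Ptprb, the phosphatase that acts on TIE2 and VE-cadherin, was at 0.50 and Flt4, the lymphatic VEGF receptor gene, at -0.87. The other genes lay closer to 0: Vegfa at -0.21, Vegfb at -0.43, Vegfc at 0.21, Angpt2 at 0.18 and the co-receptor genes Nrp1 and Nrp2 at -0.04 and 0.29. Vegfd and Angpt4 were too low to be tested.

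Markers of vessel subtypes did not pass either, and a few genes stand in more than 1 list. Of 11 arterial genes tested 6 lay below 0 (median -0.0046), with Efnb2 at 0.45 and Gja4 at -0.54. Of 6 venous genes 3 lay above 0 (median 0.13), and Nr2f2, a venous fate factor that connective tissue cells also express, was at 0.57. Lymphatic genes had 6 of 8 above 0 (median 0.33), while Ccl21a and Flt4 were at -1.10 and -0.87. Prox1, the lymphatic fate factor, was at 0.95 with all knockout libraries above the wild types. Of all genes tested, 5.66% did not overlap in that direction and 6.22% in the other. Counts were low for Prox1, 30 to 42 in knockout and 12 to 29 in wild type, and for Flt4, 9 to 29 and 40 to 43. Tip cell genes, those of sprouting vessels, had 5 of 10 below 0 (median -0.05). In that list Esm1 was at 5.41 CPM in mut-596, 4.95 in mut-597 and 5.14 in mut-795, against 7.41 CPM in WT-596, 6.98 in WT-597 and 7.07 in WT-795. Its groups did not overlap, its spread was small and its transcript is low in GC (43.4%), yet the log2 fold change of -0.47 (SE 0.27) had an edgeR adjusted p of 0.495, and it was -0.75 with the GC correction. Pdgfb, the ligand by which endothelium recruits pericytes, was at -1.23 (SE 0.37, edgeR adjusted p = 0.459), with groups that did not overlap. Junction partners had 7 of 11 below 0 (median -0.14), led by Esam and the plakoglobin gene Jup at -0.66 and -0.47. Flow-response genes had 5 of 9 below 0 (median -0.05, mean 0.00096), with Krit1 at 0.82 and Thbd at 0.33.

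**Figure D5:**
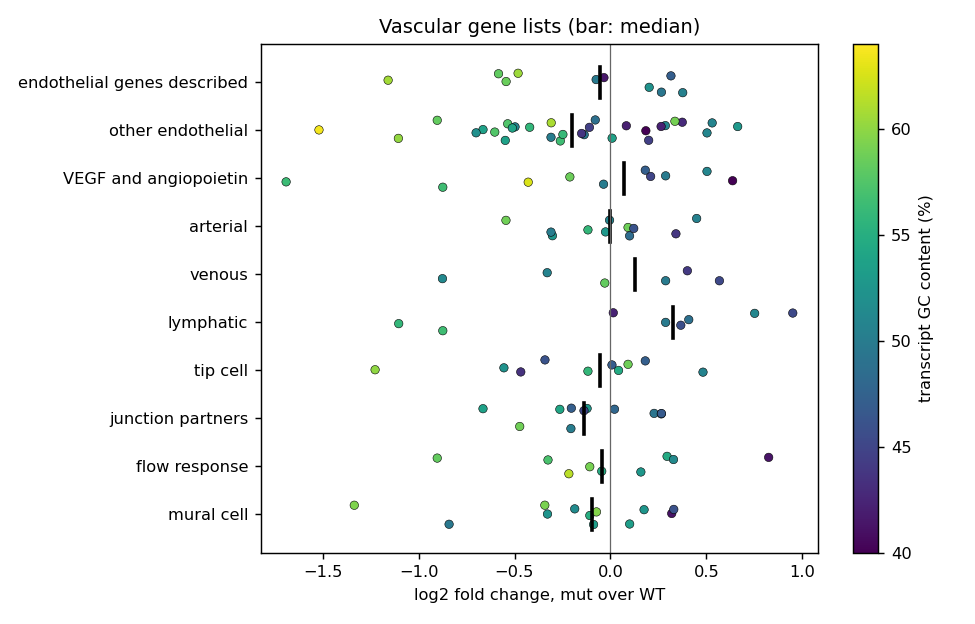
Log2 fold change of knockout over wild type (x axis) for the tested genes of 10 vascular lists (rows), with 1 point for each gene, coloured by transcript GC content in percent, and a bar at each list's median. The medians lie between -0.20 (other endothelial) and 0.33 (lymphatic), and points at the left end are mostly rich in GC.

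Markers of other cells that lie beside endothelium, or share its genes, were set beside these results. Pericyte and smooth muscle markers, 12 of 12 tested, had 8 below 0 (median -0.10) and summed to between 460 and 624 CPM in knockout and between 542 and 647 CPM in wild type. Rgs5 was at 0.32, Acta2 at -0.84 and Ndufa4l2 at -1.34. Leukocyte markers, 10 of 10 tested, had 5 on each side of 0 and summed to between 226 and 235 CPM in knockout and between 192 and 314 CPM in wild type. Of 8 platelet markers only 3 could be tested, all below 0, with sums between 44.0 and 64.2 CPM in knockout and between 45.5 and 121 CPM in wild type, and Gp1bb had 0 counts in all knockout libraries and in 2 of the wild types. Red blood cell markers, 7 of 8 tested, summed to between 4636 and 34970 CPM in knockout and between 10364 and 34066 CPM in wild type, and they varied widely within both groups. Skeletal muscle markers had 11 of 12 below 0 (median -0.65), chondrocyte markers 6 of 12 (median 0.04, mean -0.15) and fibroblast markers 3 of 12 (median 0.07, mean -0.13), and Schwann cell markers had 6 of 7 above 0 (median 0.85). The part of these cells in the endothelial values was not tested.

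The genes whose levels followed the mean log2 CPM of the 10 endothelial genes most closely over the 6 libraries belonged to none of the marker lists used here. Among 11194 protein-coding genes compared, the 10 highest values of Pearson r lay between 0.987 and 0.997, and the genes with them included Fam50a, Ddx47, Fbf1, Fermt3, Rab4a, Dmap1, Sgta, Qsox1 and Col5a3. This is a description over 6 libraries that fall into WT-596 and WT-597 on one side, with means of 4.52 and 4.54, and the other 4 between 4.24 and 4.35.

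A regulatory sequence feature was also looked up. RefSeq start regions (GRCm38.p6, 250 bases before to 50 after the start) held entries for 7 of the 10 genes, and the letters ACAGGAAG, which contain the GGAA core bound by ETS factors such as the endothelial factor ERG, were searched on both strands with no other motif. They occurred in 3 of the 9 start regions of these genes, a pair of alternative regions of Egfl7 and the region of Emcn, and in 3.58% of all 32851 start regions. One region of each gene is shown because these 2 genes share the letters, in capitals here, while their transcripts differ in GC content. For Emcn the letters appear as the reverse complement. The regions lie at chr2:26583615-26583914 (plus strand) for Egfl7 and at chr3:137340828-137341127 (plus strand) for Emcn.
Egfl7: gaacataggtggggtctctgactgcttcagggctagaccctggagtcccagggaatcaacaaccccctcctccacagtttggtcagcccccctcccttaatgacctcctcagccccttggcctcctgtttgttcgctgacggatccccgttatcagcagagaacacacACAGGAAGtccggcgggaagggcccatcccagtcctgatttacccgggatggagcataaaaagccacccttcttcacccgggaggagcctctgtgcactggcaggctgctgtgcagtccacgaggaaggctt
Emcn: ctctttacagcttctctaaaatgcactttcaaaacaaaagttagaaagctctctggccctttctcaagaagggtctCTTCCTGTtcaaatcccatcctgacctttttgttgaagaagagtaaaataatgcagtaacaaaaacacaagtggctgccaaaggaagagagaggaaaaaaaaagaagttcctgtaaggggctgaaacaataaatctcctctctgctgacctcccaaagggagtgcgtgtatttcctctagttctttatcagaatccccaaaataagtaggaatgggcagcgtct
The match describes these letters only; Egfl7 was at -0.54 and Emcn at -0.03 on the log2 scale, neither past the edgeR threshold.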

How the data were processed

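Per the labels' protocols, RNA came from the RNeasy micro kit and libraries from SMART-Seq v4 with Nextera XT, which amplify cDNA by PCR without keeping strand. The deposited matrix holds raw counts per Ensembl gene, made from coordinate-sorted alignments per the file headers, on GRCm38.p6 per the submitters' processing notes. No source used here gives the strand and multi-match settings of the counting. A second deposited table holds the authors' log2 fold changes, and the submitters' processing notes name DESeq2.

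Counts of 15712 genes that passed filterByExpr were fitted in edgeR 4.0.16 (R 4.3.3) with TMM scaling, glmQLFit and glmQLFTest, two-sided, without covariates, and adjusted over all of them with a threshold of 0.05. The SE of a log2 fold change is its size over the square root of F. Log2 CPM used a prior count of 2. Alternatives used DESeq2 1.42.0, limma 3.58.1 and a natural spline with 5 degrees of freedom on transcript GC content, fitted per library to deviations from gene means. Total counts lay between 7209217 and 10316017, and reads carry no molecular identifiers. The procedure was tested on simulated data with a common dispersion for all genes and no GC trend between libraries. That test does not cover the GC trends seen here. Positions, lengths and GC content came from GENCODE M21.

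The 10 genes, the lists and the tests were chosen with earlier results of these data known. Named are the 10 genes, Fbn1, all VEGF and angiopoietin genes, up to 4 genes with the smallest p in each other list, and, but for 1 not reported here, the 10 genes closest in pattern among protein-coding genes whose log2 CPM averaged 1 or more. Gp1bb was named after its values were seen.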

Additional observations from a re-analysis of the deposited data

How the results depend on the processing

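Of 190 values of single endothelial genes under 19 alternatives, 180 kept their direction and their side of the threshold, 7 changed sign, and 3 passed the threshold, all of Plvap. Signs changed for Pecam1 to 0.014 (limma-voom with sample weights) and 0.056 (GC correction without WT-795), for Cldn5 to 0.025 (GC correction with replicate block), and for Cdh5 to -0.031 and Flt1 to -0.079 (Xist covariate). With each library left out, Pecam1 lay between -0.17 and 0.037 (without mut-795) and Emcn between -0.13 and 0.026 (without WT-597). The cause was not tested. Plvap passed at -1.19 with no filter, at -1.57 without WT-795 and at -0.97 with the GC correction without WT-795, and over all alternatives its adjusted p (edgeR, DESeq2 or limma) lay between 0.00295 and 0.937. The count of endothelial genes past the threshold was 0, and 1 in those 3 settings; it lay between 0 and 1 when each library was left out. Genes past the threshold over the whole table numbered 1, but 270 with no filter, 4 by DESeq2, 4 with the GC correction and replicate block, 0 with the Xist covariate, 136 with the GC correction without WT-795, and between 1 and 1512 with each library left out. The endothelial genes with groups that did not overlap numbered 1, where 11.9% of all genes tested did not overlap. This number changed to 0 with the GC correction and to 6 with that correction without WT-795. It lay between 1 and 7 with each library left out, where fewer libraries make separation easier. Without WT-795 and with no correction, 47.8% of all genes tested did not overlap. No such share was computed with the GC correction. The median log2 fold change of the endothelial genes was -0.05, -0.21 with the Xist covariate, and between -0.10 and -0.01 with each library left out. The labels do not explain the title numbers. Deviations from group means correlated at -0.18, 0.24 and -0.20 for the pairs of mut-596, mut-597 and mut-795 with their wild-type namesakes. With 3 libraries a group these values cannot decide whether the numbers pair the libraries. With the replicate block the median was -0.05, 0 endothelial genes and 1 gene over the table passed. The comparison without overlap was not run for limma-voom, the replicate block and the Xist covariate, which leave CPM unchanged. Tie1, with 46 to 133 counts, and Pgf, with 6 to 39, are limited by depth. So are other named genes, among them Flt4 (9 to 43 counts), Prox1 (12 to 42), Nos3 (19 to 68) and Pdgfb (13 to 86).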
